A study of Rattus norvegicus with 12 samples.

Results

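The genes described here are the tumour necrosis factor (TNF) superfamily of ligands and receptors with the proteins that carry their signal, measured in mesenteric lymph nodes of suckling rats. Members were all genes whose array symbol starts with Tnf, or with Traf and a number, together with the NF-kB genes Nfkb1, Nfkb2, Rela, Relb and Nfkbia, and Tnfrsf17 was left out. Rel, which the same rule names, had no probe set with a single gene symbol and was not analysed here. This gave 40 of the 14217 genes with a probe set of their own, namely 7 ligands, 13 receptors, 7 adaptors, 5 NF-kB genes and 8 genes named for induction by TNF or for likeness to such a gene. Where a gene had several probe sets, as for 9 members, the brightest over the 12 arrays stood for it.

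The study fed conjugated linoleic acid (CLA), an 80 to 20 mix of the c9,t11 and t10,c12 isomers, to Wistar rats in early life and profiled the lymph nodes that drain the gut at day 21, with 1 array for each pup and 3 pups in each of 4 groups. Pups of group A had CLA for 5 weeks through a dam whose diet held 1% CLA, both in the last 2 weeks of gestation and during the 3 weeks of suckling, when it reached them in the milk. Pups of group B also had 5 weeks, from the dam's diet of 1% CLA in gestation and then by gavage in each day of suckling, while their dams had standard diet. Group C had 3 weeks of gavage in suckling alone, with dams on standard diet, and group D, the reference without CLA, had dams on standard diet from beginning to end. The 3 pups were picked at random from a group as large as the litter kept with 1 dam, and the sources used here do not say whether a group was 1 litter. If it was, diet and litter cannot be told apart, and p-values measure only the spread between these pups. All values below are normalized log2 intensities, that is, the deposited signal intensities given 1 common distribution over the 12 arrays, on which a difference of 1 is a 2-fold change, and levels of different genes are not set against each other because probe sets differ in brightness.

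TNF and its relatives are trimeric proteins, mostly anchored in the membrane, that bind receptors of a matching family on neighbouring cells. Receptors without a death domain recruit TRAF adaptors, and the death domain receptors bind adaptors that can lead either to cell death or, through kinases that remove the inhibitor encoded by Nfkbia, to NF-kB. In lymph nodes these signals shape stroma, follicles and the survival of B and T cells, and NF-kB raises the transcription of several of its own subunits and inhibitors.

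Before the members, a few facts of the 12 arrays bear on them. Group D replicate 3 stood apart from its group, with a mean correlation across probe sets, which are not independent, of 0.931 with group B and 0.930 with group C but of 0.896 with the other arrays of group D. Summed intensities of 10 smooth muscle markers were between 2138 and 2363 in group A, between 1189 and 1530 in group B and between 1088 and 1328 in group C, whereas group D had 8234, 8506 and 1318. Sums of 7 mesothelium markers were 379 to 404, 303 to 359 and 249 to 365 in groups A, B and C, beside 964, 1023 and 560 in group D. Those of 10 fibroblast markers were 11265 to 11633, 8404 to 10033 and 8027 to 9922 in groups A, B and C, beside 12248, 16506 and 9778 in group D. Neutrophil markers, of which 7 were measured, summed to between 286 and 452 in group A, with group B between 126 and 159, group C between 157 and 309 and group D between 119 and 152. For 6 plasma cell markers the sums were 2180 to 2322, 1342 to 1638, 1345 to 1974 and 1253 to 1872 in groups A, B, C and D. Ratios of 3' to 5' hexokinase signal, a sign of RNA quality, were 2.84 to 4.96 in group A, 1.62 to 3.24 and 1.82 to 2.62 in groups B and C, and 1.84 to 2.53 in group D. For GAPDH they were 1.21 to 1.53 in group A, 1.10 to 1.12 and 1.10 to 1.28 in groups B and C, and 1.06 to 1.22 in group D. Group A replicates 2 and 3 exceeded all arrays of the other groups in GAPDH. The same ratios of beta-actin overlapped, at 1.37 to 1.79 in group A, 1.44 to 1.79 and 1.60 to 1.74 in groups B and C, and 1.30 to 1.91 in group D. All 13 T cell markers and the 8 measured B cell markers were above the array background, the level of control probe sets without a target, in at least 1 array. At an adjusted p under 0.05 by limma, 4 B cell markers were higher and 1 lower in group A against group D. The counts were 2 and 1 for T cells, and 4 and 1 for 11 macrophage and dendritic cell markers. Medians were 0.43, 0.12 and -0.26. Over all genes 16.0% were higher and 12.0% lower, with a median of 0.15. Against groups B and C the counts were 4 and 2, 4 and 3, and 4 and 2. There 31.6% of all genes were higher and 16.9% lower. The part of these differences in the results below was not tested, and in bulk tissue fewer cells of a type and less RNA per cell cannot be told apart.

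Promoters of 4 NF-kB genes and NF-kB targets are shown because NF-kB acts back on these genes, whose levels are described below. Each runs 5' to 3' over 300 bases that span the start of the gene in RefSeq on assembly GRCr8, with capitals at matches to the kappaB motif, the consensus bound by NF-kB, or to TATAAA, both searched on both strands, and no 2 matches overlapped.
Nfkb1, chr2:226805413-226805712, minus strand: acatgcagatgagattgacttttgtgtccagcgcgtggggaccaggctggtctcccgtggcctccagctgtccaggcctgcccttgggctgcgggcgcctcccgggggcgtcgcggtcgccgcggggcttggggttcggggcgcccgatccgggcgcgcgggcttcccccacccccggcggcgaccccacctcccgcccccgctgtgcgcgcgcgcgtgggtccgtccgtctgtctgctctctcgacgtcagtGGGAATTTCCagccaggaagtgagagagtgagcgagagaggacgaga
Nfkb2, chr1:255108124-255108423, plus strand: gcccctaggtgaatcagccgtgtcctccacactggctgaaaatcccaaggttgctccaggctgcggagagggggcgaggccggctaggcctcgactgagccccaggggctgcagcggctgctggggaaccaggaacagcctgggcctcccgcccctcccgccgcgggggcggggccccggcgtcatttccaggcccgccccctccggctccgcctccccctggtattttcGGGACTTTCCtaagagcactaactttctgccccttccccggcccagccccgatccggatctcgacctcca
Nfkbia, chr6:78597023-78597322, minus strand: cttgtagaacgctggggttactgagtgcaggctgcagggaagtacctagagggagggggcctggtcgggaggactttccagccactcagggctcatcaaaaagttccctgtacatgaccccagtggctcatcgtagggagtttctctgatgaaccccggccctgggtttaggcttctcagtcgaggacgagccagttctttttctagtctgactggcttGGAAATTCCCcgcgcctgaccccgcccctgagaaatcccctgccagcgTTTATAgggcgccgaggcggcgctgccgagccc
Tnfaip3, chr1:15543930-15544229, minus strand: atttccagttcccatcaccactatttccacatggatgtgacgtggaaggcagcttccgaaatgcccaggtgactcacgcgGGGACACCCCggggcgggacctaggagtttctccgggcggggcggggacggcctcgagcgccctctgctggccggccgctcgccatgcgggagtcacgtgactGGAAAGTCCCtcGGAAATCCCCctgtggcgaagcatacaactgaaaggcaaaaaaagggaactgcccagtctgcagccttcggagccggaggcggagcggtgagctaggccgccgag

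Counted from the start of the gene, the kappaB match lay at 4 to 13 in Nfkb1, at -20 to -11 in Nfkb2 and at -31 to -22 in Nfkbia, while Tnfaip3 held 3 matches, the nearest at -55 to -46. The capitals at 18 to 23 in Nfkbia are TATAAA read on the other strand. Of the 40 members, 32 had a promoter in the table, and 7 of these (21.9%) held a kappaB match, the other 3 being Traf3, Tnfrsf8 and Tnfaip8l1. Among all 33469 promoters of this length 1400 (4.18%) held one. TATAAA was in 5 of the 32 members (15.6%), Tnf, Tnfsf11, Tnfaip1, Tnfaip8 and Nfkbia, and in 14.2% of all promoters. Such matches describe the letters of a window and show no binding.

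In group A, 15 of 40 members were higher than in group D at an adjusted p under 0.05 by limma, which is 37.5%, where 16.0% of all 14217 genes were called higher. Only 3 members were lower (7.5%), against 12.0% of all genes. The higher members were Tnf itself, 2 further ligands, 3 receptors, 3 TRAF adaptors, 4 of the 5 NF-kB genes and 2 of the induced genes, and the lower ones were Tnfrsf11b, Tnfaip6 and Tnfaip8. The median log2 difference was 0.41 over the members and 0.15 over all genes. The groups did not overlap in 17 members with group A higher (42.5%, and 26.9% of all genes) and in 3 with group A lower (7.5%, and 15.9% of all genes). With the intensities as deposited, 3 members were higher (Tnf, Tnfrsf25 and Relb), where 1.84% of all genes were, and 3 lower, where 9.64% were, so the share of calls that were higher depended on the scaling, although no called member changed direction. Without group D replicate 3, 16 members were higher (40%, and 14.6% of all genes) and 4 lower (10%, near the 13.4% of all genes).

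Against the mean of groups B and C, the pups that had CLA by gavage in suckling, group A was higher in 22 members (55%), where 31.6% of all genes were higher. It was lower in 2 (5%), Tnfrsf11b and Tnfaip8, where 16.9% of all genes were lower, and the medians were 0.67 over the members and 0.32 over all genes. All 5 NF-kB genes and 8 of 13 receptors were among the higher ones. The groups did not overlap in 20 members with group A higher (50%, and 33.8% of all genes) and 2 with group A lower (5%, and 16.9%). As deposited, 28 were higher (70%) and 1 lower, where 40.6% and 7.05% of all genes were and the median over all probe sets was itself 0.49. Without group D replicate 3, which enters only through the estimate of the spread, 23 were higher (57.5%, and 35.2% of all genes) and 7 lower (17.5%, near the 18.3% of all genes). The paper separated gavaged litters from their dams before dosing and gives a different isomer ratio in plasma for group A. Route, handling, isomers and, for group C, the period of CLA cannot be told apart in this comparison.

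**Figure D1:**
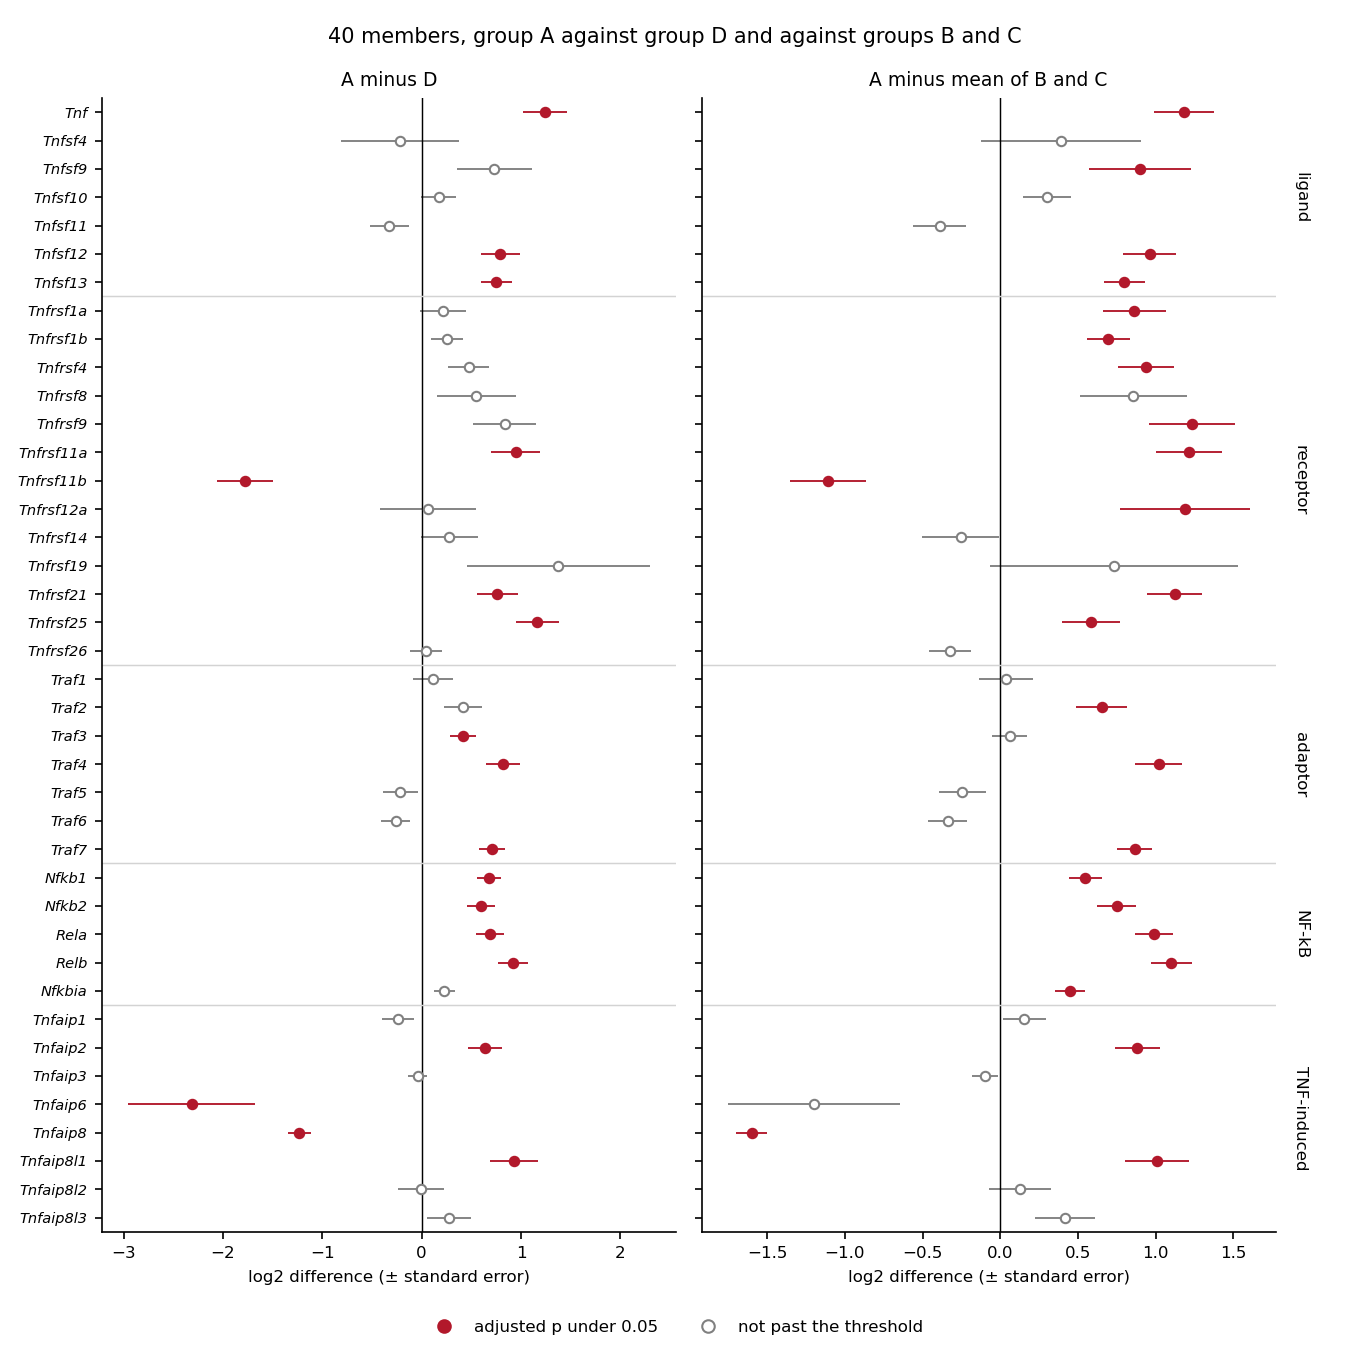
Log2 difference of each of the 40 members, group A minus group D on the left and group A minus the mean of groups B and C on the right, with the standard error from limma as a bar and filled points at an adjusted p under 0.05. Members run from ligands at the top to induced genes at the bottom, and filled points lie right of 0 for 15 members on the left and 22 on the right, with all 4 filled NF-kB genes on the left and all 5 on the right among them.

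Among the ligands, Tnf was at 7.33, 7.26 and 7.10 in group A, at 6.57, 6.18 and 5.84 in group B, at 5.52, 5.85 and 6.32 in group C, and at 5.97, 6.02 and 5.97 in group D. Every pup of group A lay above the 9 others, and the 3 pups of group D lay close together. The level rose 2.37-fold in group A against group D (log2 difference 1.25, SE, the standard error, 0.22, adjusted p = 0.00178) and by 1.18 against groups B and C (SE 0.19, adjusted p = 0.000383). Both calls held in each of the 20 other settings tried. The dimmer probe set of Tnf differed by 0.35 between groups A and D without passing (SE 0.38, adjusted p = 0.60), so its rise rests on 1 of 2 probe sets.

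Tnfsf12 and Tnfsf13 encode TWEAK, which acts on stroma and endothelium, and APRIL, which keeps plasma cells alive. Tnfsf12 was at 7.81, 7.89 and 7.65 in group A, at 7.04, 6.94 and 6.76 in group B, at 6.68, 6.81 and 6.68 in group C, and at 7.20, 7.32 and 6.45 in group D. Tnfsf13 was at 8.43, 8.54 and 8.33 in group A, at 7.57, 7.67 and 7.75 in group B, at 7.84, 7.57 and 7.40 in group C, and at 8.0, 7.61 and 7.44 in group D. In both genes every pup of group A exceeded all others. The rises against group D were 0.79 for Tnfsf12 (SE 0.20, adjusted p = 0.013) and 0.75 for Tnfsf13 (SE 0.16, adjusted p = 0.00456), and those against groups B and C were 0.96 and 0.80 (adjusted p = 0.000712 and 0.000505). Without group A replicate 2 the call of Tnfsf12 against group D was lost (log2 difference 0.73, adjusted p = 0.0556). The second probe set of Tnfsf13 gave 0.65 against group D without passing (adjusted p = 0.0743) and passed against groups B and C (0.82, adjusted p = 0.00679). Plasma cell marker sums, given above, were also higher in every pup of group A than in the others. Of the 6 markers, 2 were called higher against group D and 0 lower. Xbp1, Sdc1 and Fkbp11 were higher in group D replicates 1 and 2 than in every pup of group A. The part of plasma cells in the level of Tnfsf13 was not tested.

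Tnfsf9, the ligand of the T cell costimulator Tnfrsf9, was at 4.98, 5.50 and 4.59 in group A, at 4.69, 4.17 and 3.88 in group B, at 3.87, 3.64 and 4.49 in group C, and at 4.68, 4.31 and 3.90 in group D. Group A overlapped with groups B and D in its lowest pup. It passed against groups B and C (log2 difference 0.90, SE 0.33, adjusted p = 0.0463) and not against group D (0.73, adjusted p = 0.21). This call was among the least stable, since it was lost without replicate 1 or 2 of group A, 2 or 3 of group B, 1 or 2 of group C or 2 of group D, with differences of 0.66 to 0.92 and adjusted p-values of 0.0561 to 0.214.
Tnfsf4, the ligand of Tnfrsf4, was above background in 8 of 12 arrays, at 1.69, 3.70 and 3.14 in group A, at 1.48, 2.55 and 2.59 in group B, at 2.29, 2.62 and 3.18 in group C, and at 3.01, 2.69 and 3.49 in group D. Groups A and D overlapped, and it passed in no comparison. The death ligand Tnfsf10 ranged from 5.86 to 6.57 over the 12 arrays and passed in none either.

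The axis of RANK and its ligand, known for osteoclasts and for the formation of lymph nodes, has its ligand in Tnfsf11, its receptor in Tnfrsf11a and a secreted decoy, osteoprotegerin, in Tnfrsf11b. The ligand was at 7.43, 7.38 and 7.79 in group A, at 7.74, 8.03 and 8.09 in group B, at 8.12, 7.72 and 7.84 in group C, and at 8.15, 8.02 and 7.40 in group D. These groups overlapped, and Tnfsf11 did not pass against group D (log2 difference -0.33, SE 0.20, adjusted p = 0.289) unless group D replicate 3 was left out (-0.55, adjusted p = 0.0268). Its dimmer probe set passed as lower in group A against groups B and C (-0.71, adjusted p = 0.0305), while the brighter one did not (-0.39, adjusted p = 0.0918).
The receptor Tnfrsf11a was at 6.22, 6.22 and 6.34 in group A, at 5.10, 4.94 and 5.09 in group B, at 4.84, 5.01 and 5.30 in group C, and at 5.71, 5.43 and 4.80 in group D. All pups of group A were above all others, with a rise of 0.95 against group D (SE 0.25, adjusted p = 0.0161) and of 1.22 against groups B and C (SE 0.21, adjusted p = 0.000656). The first call was lost without group A replicate 3 (0.91, adjusted p = 0.0564).
The decoy Tnfrsf11b was at 4.59, 4.44 and 4.76 in group A, at 5.72, 5.65 and 5.99 in group B, at 5.76, 5.38 and 5.72 in group C, and at 6.60, 6.86 and 5.66 in group D. Every pup of group A was below every other pup, and group D replicate 3 lay with groups B and C. Tnfrsf11b fell 3.43-fold in group A against group D (log2 difference -1.78, SE 0.28, adjusted p = 0.000889, and -2.13 without group D replicate 3, adjusted p = 3.72e-05) and by 1.11 against groups B and C (SE 0.24, adjusted p = 0.0031). By limma the second call was lost with the intensities as deposited (-0.81, adjusted p = 0.0501). It was also lost with intensities under 32 raised to 32 (-0.71, adjusted p = 0.0563). The mesothelium and fibroblast sums were highest in group D replicates 1 and 2 and higher in group A than in groups B and C, and their part in the level of Tnfrsf11b was not tested.

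The TNF receptors proper are Tnfrsf1a, the death domain receptor of most cell types, and Tnfrsf1b, found mainly on leukocytes. Tnfrsf1a was at 8.50, 8.23 and 8.28 in group A, at 7.56 in each pup of group B, at 7.42, 7.50 and 7.24 in group C, and at 8.45, 8.51 and 7.40 in group D. Group A overlapped with group D replicates 1 and 2 and was apart from groups B and C, beside which group D replicate 3 lay. Against groups B and C the difference was 0.86 (SE 0.20, adjusted p = 0.00431) and against group D 0.22 (SE 0.23, adjusted p = 0.581).
Tnfrsf1b was at 7.33, 7.26 and 6.85 in group A, at 6.08, 6.16 and 6.34 in group B, at 6.78, 6.74 and 6.61 in group C, and at 7.04, 6.89 and 6.75 in group D. It too was higher in group A than in groups B and C (0.70, SE 0.14, adjusted p = 0.00144), without passing against group D (0.25, SE 0.16, adjusted p = 0.304). Group B lay wholly below groups C and D, at differences of -0.51 from group C (adjusted p = 0.864) and -0.70 from group D (adjusted p = 0.165), neither of which passed.

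Of 3 costimulatory receptors of activated T cells among the members, Tnfrsf4 and Tnfrsf9 passed as higher in group A than in groups B and C, and Tnfrsf8, the gene of CD30, did not (log2 difference 0.85, adjusted p = 0.0703). Tnfrsf4, the gene of OX40, was at 7.21, 6.62 and 6.96 in group A, at 5.83, 6.14 and 5.64 in group B, at 6.19, 5.88 and 6.26 in group C, and at 6.76, 6.25 and 6.36 in group D. Tnfrsf9 was at 7.38, 7.09 and 6.27 in group A, at 5.58, 5.19 and 5.52 in group B, at 6.30, 5.40 and 6.08 in group C, and at 6.56, 5.81 and 5.87 in group D. In Tnfrsf4 group A was clear of groups B and C, and in Tnfrsf9 its replicate 3 fell just under group C replicate 1. Against groups B and C the rises were 0.94 for Tnfrsf4 (SE 0.18, adjusted p = 0.00134) and 1.23 for Tnfrsf9 (SE 0.27, adjusted p = 0.00324), and against group D the differences of 0.47 and 0.83 did not pass (adjusted p = 0.142 and 0.0845). T cell marker sums were 9347 to 11737 in group A, just clear of group B at 8073 to 9340 and overlapping with group C at 8829 to 9974 and group D at 8505 to 9748. Of 4 measured markers of regulatory and activated T cells, 1 was higher and 0 lower in group A against groups B and C at an adjusted or an unadjusted p under 0.05 by limma, with a median of -0.26.
Tnfrsf25, the gene of the T cell receptor DR3, was at 8.40, 8.31 and 8.44 in group A, at 7.93, 7.38 and 7.88 in group B, at 7.64, 7.68 and 8.30 in group C, and at 6.97, 7.07 and 7.62 in group D. Group A was above every other pup, though by little over group C replicate 3. The rise was 1.16 against group D (2.24-fold, SE 0.21, adjusted p = 0.00226), a call kept in all 20 other settings. It was 0.58 against groups B and C (SE 0.19, adjusted p = 0.0253), and that call was lost without any 1 pup of group A, replicate 2 of group B or replicate 1 or 2 of group C (0.50 to 0.62, adjusted p = 0.0535 to 0.0831).

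Tnfrsf21, the gene of the death domain receptor DR6, was at 7.40, 7.47 and 7.31 in group A, at 6.01, 6.16 and 6.78 in group B, at 6.37, 6.17 and 6.15 in group C, and at 6.87, 6.69 and 6.34 in group D. Group A was above all other pups on this probe set, by 0.76 against group D (SE 0.20, adjusted p = 0.0183) and 1.12 against groups B and C (SE 0.18, adjusted p = 0.000309). The second probe set was called in both comparisons too (0.77 and 1.22, adjusted p = 0.0365 and 0.000522). Without group A replicate 1 or 2 the call of the brighter one against group D was lost (0.76 and 0.72, adjusted p = 0.0506 and 0.0677).
Tnfrsf12a, the receptor of TWEAK on stromal and epithelial cells, was at 5.77, 5.79 and 5.16 in group A, at 5.20, 4.05 and 4.32 in group B, at 4.29, 3.84 and 4.64 in group C, and at 6.03, 6.22 and 4.28 in group D. Its ligand separated group A from all others, whereas the receptor overlapped with groups B and D. The call against groups B and C (1.19, SE 0.42, adjusted p = 0.04) was lost without replicate 1 or 2 of group A, 2 or 3 of group B or 1 or 2 of group C (1.07 to 1.20, adjusted p = 0.0614 to 0.134), and the difference from group D was 0.07 (SE 0.48, adjusted p = 0.952).
Of the other receptors, Tnfrsf8 and Tnfrsf26 passed in no comparison, and Tnfrsf19 was above background in 3 of 12 arrays and is named only. Tnfrsf14, the gene of HVEM on lymphocytes, was at 9.78, 9.56 and 9.85 in group A, at 10.02, 9.82 and 9.83 in group B, at 10.11, 9.92 and 10.19 in group C, and at 9.09, 8.87 and 10.38 in group D, whose replicate 3 was the highest of all 12.

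**Figure D2:**
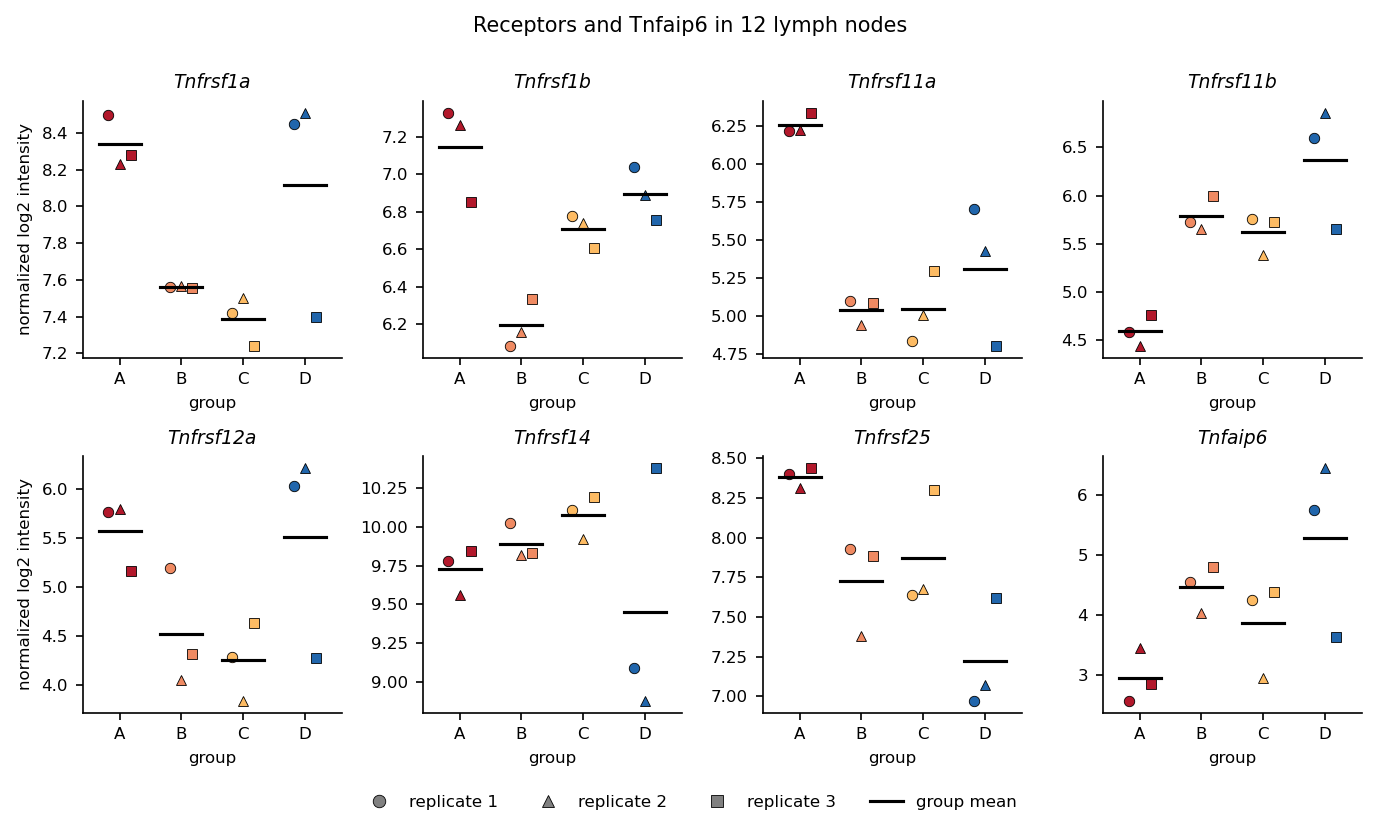
Normalized log2 intensity of 7 receptors and Tnfaip6 in each of 12 lymph nodes, by group, with 1 marker shape for each replicate number and a line at the group mean, on axes that do not start at 0. Squares in group D, its replicate 3, lie at 7.40 for Tnfrsf1a, 4.28 for Tnfrsf12a, 3.64 for Tnfaip6 and 10.38 for Tnfrsf14, apart from the other 2 pups of the group and beside groups B and C.

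Of the adaptors, Traf4 and Traf7 rose in group A and Traf3 did so by less. Traf4 was at 7.89, 8.20 and 8.02 in group A, at 7.06, 7.11 and 6.78 in group B, at 6.78, 6.91 and 7.46 in group C, and at 7.18, 7.20 and 7.27 in group D. Traf7 was at 8.02, 7.96 and 7.90 in group A, at 7.28, 6.88 and 7.13 in group B, at 7.05, 7.10 and 7.16 in group C, and at 7.35, 7.29 and 7.13 in group D. Group A was above all other pups in both, with rises against group D of 0.82 for Traf4 (SE 0.17, adjusted p = 0.00533) and 0.71 for Traf7 (SE 0.13, adjusted p = 0.00207) and against groups B and C of 1.02 and 0.86 (adjusted p = 0.000201 and 7.79e-05). Both encode proteins of the family that do not act mainly through the TNF receptors.
Traf2, the adaptor of both TNF receptors, was at 6.88, 6.74 and 6.52 in group A, at 6.09, 5.71 and 6.10 in group B, at 6.18, 6.34 and 5.94 in group C, and at 6.42, 6.48 and 6.0 in group D. No pup of group A overlapped with another group, and the difference passed against groups B and C (0.65, SE 0.17, adjusted p = 0.00753) and missed the threshold against group D (0.41, SE 0.19, adjusted p = 0.161).
Traf3, which restrains the alternative NF-kB pathway, was at 7.93, 7.82 and 8.11 in group A, at 7.99, 7.75 and 7.99 in group B, at 7.85, 7.85 and 7.92 in group C, and at 7.41, 7.42 and 7.77 in group D. Here group A lay with groups B and C (difference 0.06, adjusted p = 0.733), and group D was the low one. The rise of 0.41 in group A against group D (SE 0.13, adjusted p = 0.0418) was kept in 7 of 20 other settings. It was lost without any 1 pup of group A or C, replicate 1 or 3 of group B or replicate 1 or 2 of group D (0.34 to 0.48, adjusted p = 0.0509 to 0.151). A dimmer probe set of Traf3 was also called higher (1.23, SE 0.36, adjusted p = 0.028). Traf1, Traf5 and Traf6 passed in no comparison.

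Of the 5 NF-kB genes, 4 were higher in group A against group D and all 5 against groups B and C. Nfkb1, the precursor of the p50 subunit, was at 9.93, 9.74 and 9.95 in group A, at 9.51, 9.21 and 9.46 in group B, at 9.35, 9.29 and 9.15 in group C, and at 9.06, 9.14 and 9.39 in group D. Nfkb2, the precursor of p52 in the alternative pathway, was at 8.42, 8.51 and 8.33 in group A, at 7.94, 7.54 and 7.61 in group B, at 7.73, 7.57 and 7.64 in group C, and at 8.10, 7.73 and 7.64 in group D. For both, every value of group A was above all 9 others. Rises against group D were 0.68 for Nfkb1 (SE 0.12, adjusted p = 0.00186) and 0.60 for Nfkb2 (SE 0.14, adjusted p = 0.0111), and against groups B and C 0.55 and 0.75 (adjusted p = 0.00123 and 0.000471).
Rela, whose product is the main activating subunit, was at 8.54, 8.83 and 8.55 in group A, at 7.86, 7.56 and 7.68 in group B, at 7.45, 7.74 and 7.63 in group C, and at 8.10, 8.04 and 7.72 in group D. Relb, the partner of p52, was at 8.64, 8.70 and 8.53 in group A, at 7.92, 7.24 and 7.62 in group B, at 7.33, 7.56 and 7.46 in group C, and at 7.63, 7.71 and 7.76 in group D. Again group A was apart from all others. Relb rose by 0.92 against group D (1.89-fold, SE 0.15, adjusted p = 0.00116) and by 1.10 against groups B and C (SE 0.13, adjusted p = 4.85e-05), and Rela by 0.69 (SE 0.14, adjusted p = 0.00454) and 0.99 (SE 0.12, adjusted p = 6.07e-05). With the intensities as deposited, Relb passed against group D (0.87, adjusted p = 0.0229), while Nfkb1 (0.69, adjusted p = 0.0686), Rela (0.64, adjusted p = 0.117) and Nfkb2 (0.53, adjusted p = 0.242) did not.
The inhibitor gene Nfkbia, a direct NF-kB target, was at 9.95, 10.06 and 10.04 in group A, at 9.50, 9.53 and 9.67 in group B, at 9.77, 9.58 and 9.37 in group C, and at 9.86, 9.73 and 9.76 in group D. Group A did not overlap with any group, but the distance was small, passing against groups B and C (0.45, SE 0.10, adjusted p = 0.00247) and not against group D (0.23, SE 0.11, adjusted p = 0.173).

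Tnfaip3, the gene of the deubiquitinase A20 that ends NF-kB signalling, had the largest number of kappaB matches among the member promoters but was level over the groups. It was at 9.13, 8.92 and 9.18 in group A, at 9.16, 9.24 and 9.20 in group B, at 9.24, 9.09 and 9.10 in group C, and at 9.13, 9.04 and 9.17 in group D. The difference was -0.04 between groups A and D (SE 0.10, adjusted p = 0.835) and -0.10 between group A and groups B and C (SE 0.09, adjusted p = 0.415). Of the 7 members with a kappaB match, Nfkb1, Nfkb2, Traf3 and Tnfaip8l1 were called higher in group A against group D. Nfkb1, Nfkb2, Tnfaip8l1 and Nfkbia were called higher against groups B and C, and Tnfaip3 and Tnfrsf8 in neither comparison. Among all 40 members, 15 (37.5%) were higher against group D and 22 (55%) against groups B and C. Shares of all genes were 16.0% and 31.6%. The Traf3 call was kept in 7 of 20 other settings. Whether a kappaB match goes with a higher level was not tested.

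**Figure D3:**
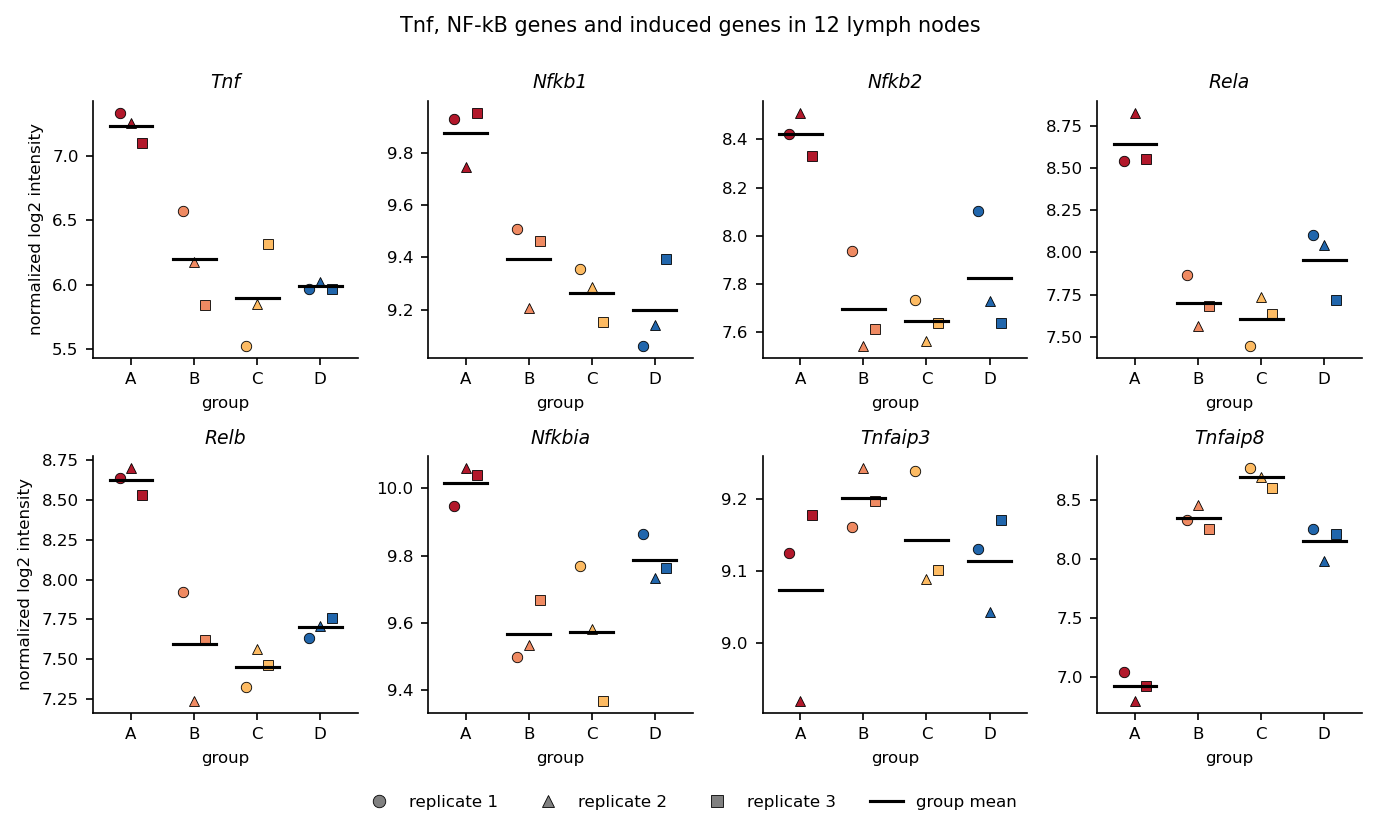
Normalized log2 intensity of Tnf, the 5 NF-kB genes, Tnfaip3 and Tnfaip8 in each of 12 lymph nodes, by group, with 1 marker shape for each replicate number and a line at the group mean, on axes that do not start at 0. In Tnf and the NF-kB genes the 3 pups of group A lie above all others, in Tnfaip3 the groups overlap between 8.92 and 9.24, and in Tnfaip8 group A lies between 6.80 and 7.04, below all others.

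Among the genes named for induction by TNF, the fall of Tnfaip8 had the lowest adjusted p of all 40 members both against group D and against groups B and C. Tnfaip8, whose product has been described as a protector from cell death, was at 7.04, 6.80 and 6.93 in group A, at 8.33, 8.46 and 8.26 in group B, at 8.78, 8.70 and 8.61 in group C, and at 8.26, 7.98 and 8.22 in group D. Group A lay far below the rest, and group C was the highest group. It fell 2.35-fold against group D (log2 difference -1.23, SE 0.12, adjusted p = 2.46e-05) and by 1.60 against groups B and C (SE 0.10, adjusted p = 4.62e-07), calls kept in all 20 other settings. Its relative Tnfaip8l1 moved the other way, at 7.34, 6.79 and 7.12 in group A, at 5.78, 5.55 and 6.19 in group B, at 6.29, 6.46 and 6.16 in group C, and at 6.64, 5.91 and 5.91 in group D. The rise was 0.93 against group D (SE 0.24, adjusted p = 0.0149) and 1.01 against groups B and C (SE 0.21, adjusted p = 0.00185), with the first call lost without group A replicate 1 (0.80, adjusted p = 0.0643) or group D replicate 2 (0.81, adjusted p = 0.0555). Tnfaip8l2 and Tnfaip8l3 passed in no comparison.
Tnfaip2, first found as an endothelial gene induced by TNF, was at 7.90, 7.82 and 7.70 in group A, at 7.03, 6.59 and 7.21 in group B, at 6.98, 6.86 and 6.88 in group C, and at 7.44, 7.07 and 7.0 in group D. Group A was above all others on this probe set, by 0.64 against group D (SE 0.17, adjusted p = 0.0182) and 0.88 against groups B and C (SE 0.15, adjusted p = 0.000464). Its 3 other probe sets were not called, at differences from group D of 1.00, 0.30 and -1.74 (adjusted p = 0.487, 0.507 and 0.376), and the call against group D was lost without group A replicate 1 or 2 or group D replicate 2 (0.59 to 0.63, adjusted p = 0.0577 to 0.0635).
Tnfaip6, the gene of a secreted binder of hyaluronan made by stromal and mesothelial cells, was at 2.57, 3.46 and 2.86 in group A, at 4.54, 4.04 and 4.80 in group B, at 4.25, 2.96 and 4.38 in group C, and at 5.74, 6.44 and 3.64 in group D. Group A had the lowest mean and 2 of its 3 arrays above background. It overlapped with group C replicate 2, and group D replicate 3 was just above it. It fell by 2.31 on the log2 scale against group D (SE 0.64, adjusted p = 0.0219, and -3.13 without group D replicate 3, adjusted p = 0.000835). It did not pass without group A replicate 1 or 3 or group D replicate 1 or 2 (-2.26 to -1.73, adjusted p = 0.0606 to 0.0918), nor with only groups A and D in the fit (-2.31, adjusted p = 0.0952), and the second probe set was not called (-0.77, adjusted p = 0.637). With intensities under 32 raised to 32 the difference was -0.73 (adjusted p = 0.124), so its size depends on levels near background. Smooth muscle and mesothelium sums were high in the same 2 pups of group D. Tnfaip1 passed in no comparison.

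In groups B and C no member passed against group D at an adjusted p under 0.05, where over all genes 0.0141% were lower and 0.00703% higher for group B, and 0.0352% lower and 0.00703% higher for group C. At an unadjusted p under 0.05 by limma, group B had 3 members lower (7.5%, and 10.5% of all genes) and 2 higher (5%, and 6.47%). Group C had 6 lower (15%, and 12.2% of all genes) and 5 higher (12.5%, and 7.42%). Member medians were -0.12 in group B and -0.16 in group C, beside -0.11 and -0.12 over all genes. As deposited, group B had 1 member lower and group C had 22 (2.5% and 55%, where 0.499% and 35.0% of all genes were lower), with none higher (0.00% and 0.0352% of all genes), and the median over all probe sets was then -0.55 in group B and -0.70 in group C.
Leaving out group D replicate 3 changed this. The reference was then group D replicates 1 and 2, with smooth muscle sums of 8234 and 8506. Group B then had 5 members lower (12.5%, near the 12.8% of all genes) and 4 higher (10%, and 7.15% of all genes). Group C had 7 lower (17.5%, near the 15.0% of all genes) and 5 higher (12.5%, and 8.04% of all genes). Tnfrsf1a was then lower in group B (log2 difference -0.92, SE 0.11, adjusted p = 0.000193), and also in group C (-1.09, SE 0.11, adjusted p = 6.16e-05), and Tnfrsf12a was at -1.60 (SE 0.37, adjusted p = 0.0102) and -1.87 (SE 0.37, adjusted p = 0.00377). Tnfrsf11b and Tnfaip6 were lower in both groups too, Tnfrsf1b in group B alone, and Tnfsf12, Rela and Tnfaip1 in group C alone. Called higher in both were Tnfrsf14 (0.91 and 1.09, adjusted p = 0.000342 and 9.66e-05), Tnfrsf25, Tnfrsf26 and Traf3, with Tnfaip8 in group C. These rises depended on the scaling, since as deposited and without the same pup the differences were 0.14 and 0.23 for Tnfrsf14, 0.06 and 0.08 for Tnfrsf25, -0.17 and -0.22 for Tnfrsf26 and -0.16 and -0.31 for Traf3 in groups B and C, and -0.23 for Tnfaip8 in group C. Without that pup Tnfrsf14 was also called higher in group A against group D by limma (0.75, SE 0.12, adjusted p = 0.00102). As deposited that difference was 0.63. Tnfrsf25 and Traf3 were called higher in group A too.
Between groups B and C, which shared gavage in suckling and differed in the dam's diet in gestation, no member and 0.00% of genes passed in either direction. At an unadjusted p under 0.05 Tnfrsf1b and Tnfaip8 were lower in group B and none was higher, with backgrounds of 1.93% and 1.96%. The Tnfaip8 difference was -0.34 (SE 0.12, adjusted p = 0.99).

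Genes that work with the members, taken from lists of the pathway, did not move in 1 direction in group A against group D. Over all genes 12.0% were called lower and 16.0% higher in this comparison. Of 16 measured adaptors and cell death proteins, 6 were lower and 2 higher, with a median of -0.44 where that of all genes was 0.15. Tank, a TRAF-binding scaffold, was at -1.56 (SE 0.17, adjusted p = 7.95e-05), the inhibitor of apoptosis Birc2 at -1.31 (SE 0.15, adjusted p = 8.04e-05), its relative Birc3 at -0.86 (adjusted p = 0.00555) and the initiator caspase Casp8 at -0.93 (adjusted p = 0.00105). Higher by 0.87 was Tradd, the adaptor that binds the death domain of Tnfrsf1a (SE 0.17, adjusted p = 0.00347), and by 0.79 Trafd1 (adjusted p = 0.00295).
Of 19 kinases and inhibitors of NF-kB, 6 were lower and 7 higher. Cyld, a deubiquitinase that restrains NF-kB, fell by 1.88 (SE 0.25, adjusted p = 0.000245), and the kinases Tbk1 and Map3k7 were at -1.14 and -0.91 (adjusted p = 0.000231 and 0.00216). Tab3, which binds Map3k7, was at -1.06 (adjusted p = 0.0124). The nuclear inhibitor Nfkbid rose by 1.53 (SE 0.22, adjusted p = 0.00043). Adam17, the protease that sheds TNF from the cell surface, was at -0.94 (adjusted p = 0.00201). Against groups B and C this list had 7 lower and 9 higher and the adaptor list 7 and 3, where 16.9% of all genes were lower and 31.6% higher.
Of 28 further genes known to be induced by TNF through NF-kB, 4 were lower and 5 higher against group D. Both counts were near the shares of all genes, 12.0% and 16.0%, and the median was 0.09 beside 0.15 over all genes. The neutrophil gelatinase Mmp9 rose by 1.46 (SE 0.25, adjusted p = 0.00149), and the chemokine Cx3cl1 by 1.06 (adjusted p = 0.0339), while the cytokine Il1b was at -1.33 (SE 0.26, adjusted p = 0.0031), the chemokine Ccl2 at -1.0 (adjusted p = 0.0085), the survival gene Bcl2a1 also at -1.0 (adjusted p = 0.00202) and the adhesion gene Vcam1 at -0.92 (adjusted p = 0.000132). Neutrophil marker sums were higher in every pup of group A than in group D, and Mmp9 is known from those cells. Of the 7 measured markers, 3 were called higher and 0 lower against group D. Mmp8, Cxcr2, Csf3r and Camp, the last above background in 1 array, overlapped between these groups. Mmp8 and Cxcr2 reached 5.52 and 4.25 in group D but 4.95 and 3.65 in group A. Whether the rise of Mmp9 came from neutrophils was not tested. Against groups B and C the list had 3 lower and 10 higher, where 16.9% of all genes were lower and 31.6% higher.
Among 5 other ligands, the lymphotoxin gene Ltb rose by 0.53 (SE 0.11, adjusted p = 0.00418), and Cd40lg, a T cell ligand that acts on B cells, was lower at -0.93 (SE 0.27, adjusted p = 0.0303). Among 5 other receptors the death receptor Fas was at -1.51 (SE 0.23, adjusted p = 0.000707), and Ngfr and Relt were higher by 0.90 and 0.79 (adjusted p = 0.0197 and 0.00483). Of 8 genes that depend on the lymphotoxin beta receptor in lymph nodes, the follicle chemokine Cxcl13 was lower (-0.94, SE 0.12, adjusted p = 0.000242) and the venule addressin Madcam1 higher (0.88, SE 0.26, adjusted p = 0.0312). Against groups B and C, Cr2 of follicular dendritic cells and B cells was lower by limma (-2.13, SE 0.30, adjusted p = 0.000132). It was at 7.73 to 8.17 in group A and 9.87 to 10.34 in groups B and C. Group D replicates 1 and 2, at 8.54 and 8.27, lay nearer to group A, and replicate 3 was at 10.06. The lists were written with earlier results of these data known, and their counts are given as description.

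**Figure D4:**
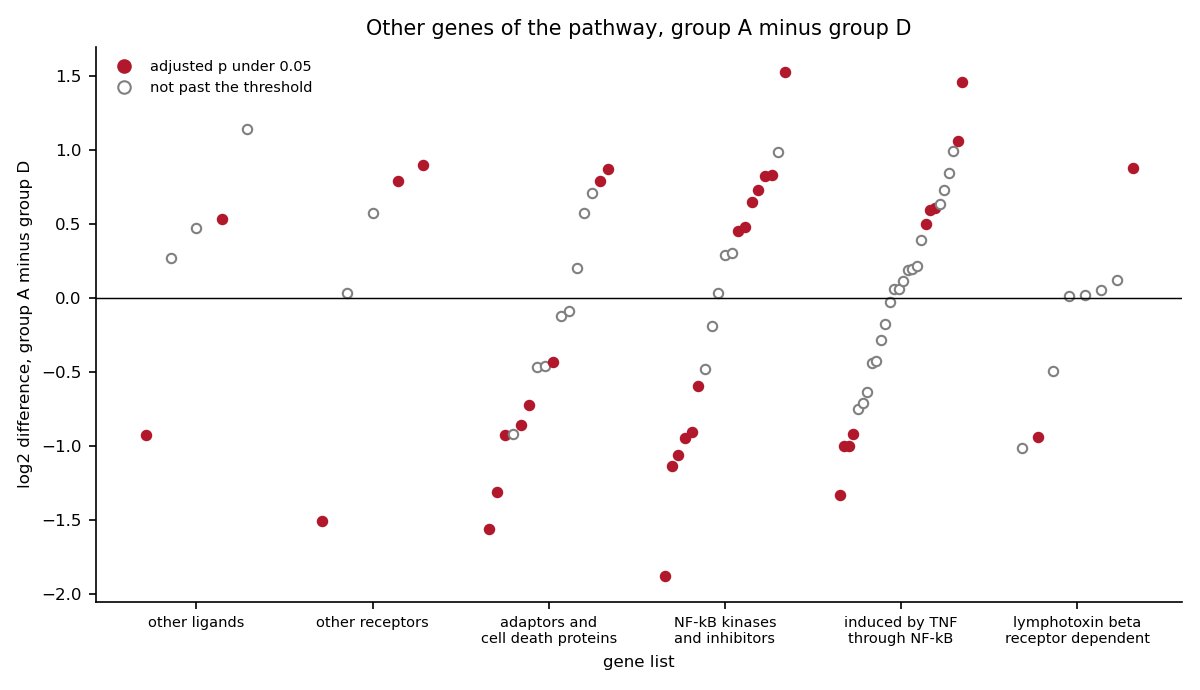
Log2 difference between groups A and D of every measured gene in 6 lists of the TNF pathway outside the members, with filled points at an adjusted p under 0.05 by limma and genes in order of size within a list. Filled points lie on both sides of 0 in each list, from Cyld at -1.88 to Nfkbid at 1.53.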

How the data were processed

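Total RNA of mesenteric lymph nodes from 12 pups was hybridised to 1 Affymetrix rat array each. The authors deposited signal intensity values on a linear scale, made with MAS5 per the submitters' processing notes, for 31099 probe sets, of which 30 values were 0. Columns did not share a median, which ranged from 19.3 to 38.5. For their own lists the authors used GeneSpring, set values relative to the group D median, and kept an unadjusted p under 0.05 and then a 2-fold change, with the test not named. Zeros were set to the smallest positive value, 0.1, and log2 values were brought to a common distribution by quantile normalization. This scaling was chosen with the counts under it known. Normalized intensities under 1 were then raised to 1. The 57 control probe sets were left out, and 31042 were tested in R 4.3.3 by limma 3.58.1, fitting a mean for each group, with moderated variances that follow a trend, a two-sided test and Benjamini-Hochberg adjustment over all probe sets in each of 5 comparisons. A call needs an adjusted p under 0.05. Exact permutation of 3 arrays against 3 cannot go below p = 0.1, so calls rest on pooling the spread over probe sets. Precision is limited by the number of arrays. Of the probe sets, 20826 carry 1 symbol, 436 several and 9780 none. Array background on each array was taken from 27 control probe sets whose spikes were absent, at their 95th percentile, and 37 members exceeded it on all 12 arrays.

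The members and all lists were chosen with earlier results of these data known. Values in every array are given for members called in any comparison, for Tnf and its receptors and for the partners of called members, and up to 6 called genes are named for each pathway list. Alternatives were no scaling of the deposited values, scaling to the 75th percentile of each array, a higher floor (32), removal of the 40% dimmest probe sets, variances without the trend, only the groups compared, the mean of a gene's probe sets, 2-fold thresholds, the replicate number as a block, and leaving out each array. The fit was tested on simulated data. Promoters came from RefSeq tables of GRCr8, matched by gene number, and figures were drawn with matplotlib 3.10.9.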

Additional observations from a re-analysis of the deposited data

How the results depend on the processing

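No member call changed direction in any setting, and of 42 calls of single members 29 were kept with the intensities as deposited, 36 with only the groups compared and 37 to 42 in each of the other settings that keep all arrays. Centring on the 75th percentile gave 16 members higher and 3 lower in group A against group D and 20 and 2 against groups B and C. As deposited, 3 were higher against group D, and 1 was lower against groups B and C, and, set against group D, group B had 1 lower and group C had 22. A floor of 32 gave 1 lower against groups B and C, and only the groups compared gave 7. With a 2-fold threshold added to the adjusted or to the unadjusted p, 2 were higher in group A against group D and 8 against groups B and C, and the unadjusted rule gave 2 lower in group C against group D. Leaving out each array gave 11 to 16 higher and 2 to 4 lower in group A against group D, 19 to 23 higher and 2 to 7 lower against groups B and C, 0 to 5 lower and 0 to 4 higher in group B and 0 to 7 lower and 0 to 5 higher in group C against group D. The upper ends in groups B and C came from leaving out group D replicate 3 and all other arrays gave 0. Shares of all genes are given above only for the main setting, the deposited intensities and the fit without group D replicate 3. The other counts of this section describe the members alone and are not set against all genes.

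Deviations of same-numbered arrays from their group means correlated between -0.015 and 0.083 over 18 pairs. Those of differently numbered arrays correlated between -0.093 and 0.037 over 36 pairs. Correlations this low cannot show whether replicate numbers pair the pups. With the replicate block, 16 members were higher and 3 lower in group A against group D, 21 and 2 against groups B and C, and Tnfsf9 lost its call (log2 difference 0.90, adjusted p = 0.0591). Precision is limited by 3 arrays a group and, for Tnfsf4, Tnfrsf19 and Tnfaip6, by signal near background.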
